A study of Mus musculus with 12 samples.

Results

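The genes described here are 7 components of the hair cell ribbon synapse, Otof, Ctbp2, Bsn, Pclo, Rims2, Rimbp2 and Erc2. They were chosen by name as known genes of this synapse, with earlier results of these data known, from the 24489 genes of the mouse count table, and all 7 were found in it. Hair cells (HCs) of the inner ear release glutamate onto spiral ganglion neurons (SGNs) at active zones that carry a ribbon, an electron-dense body that tethers vesicles next to calcium channels. The ribbon itself is built from RIBEYE, a product of Ctbp2, and is anchored by the scaffold proteins Bassoon and Piccolo (Bsn, Pclo). The RIM protein of Rims2, the RIM-binding protein of Rimbp2 and the ELKS/CAST family protein of Erc2 organise channels and vesicles at the membrane, and Otof encodes otoferlin, a ferlin required for exocytosis in HCs. All but Otof and RIBEYE also belong to conventional active zones, so SGNs, which form such synapses in the brainstem, are a natural comparison.

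Cells that carried tdTomato were sorted from mouse cochlea into 384-well plates and sequenced as single cells by Smart-seq2, a full-length method without molecule barcodes. Each plate is 1 deposited sample and counts here as 1 replicate, with 3 plates at E16.5, 1 at E17.5 and 2 at each of the other stages, which were E14.5, P3, E15.5 and E18.5. The labels give PVcre;Ai14 for every plate but replicate 2 of E14.5, for which they give TrkCcre alone, whereas the study's methods place an Ntrk3Cre driver at E14.5. No animal carried a treatment or a mutation under study. The parvalbumin driver marks both SGNs and HCs, tissue of several animals was pooled before sorting, and no label says that the plates of a stage came from separate animals, so that p-values measure the spread between plates, which may be technical. Plates of 1 series (the number in a plate's name) are confounded with stage at E18.5 (SS2_19) and P3 (SS2_15), whereas SS2_20 plates cover E14.5 to E17.5 and E16.5 also has 2 plates of series SS2_18.

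Of 4608 wells, 4226 cells passed the filters, and kept cells carried 80997594 to 303906928 counts per plate. Clusters made without the 7 genes and without the related genes listed further on were named from marker genes and gave 2219 SGN-like, 1260 glia-like, 512 otic mesenchyme-like and 86 HC-like cells, with 149 unnamed. No cell name was shared by plates. HC-like cells were found at E16.5 (12 cells), E17.5 (5) and E18.5 (69), and none was named at E14.5, E15.5 or P3. At E18.5, 30 of them were cochlear (14 and 16 per plate), of which 19 were inner hair cell (IHC)-like and 11 outer hair cell (OHC)-like, 27 were vestibular-like, and 12 belonged to a cluster led by collagen genes that stayed without an origin and was left out of the cochlear cells. The summed level of the 9 HC markers was 7185 and 7212 CPM (counts scaled to the total of each sum) in the cochlear HC-like sums and 267.6 and 275.6 CPM in the SGN-like sums of the 2 E18.5 plates. The 8 neuronal markers summed to 732 and 891 CPM in the cochlear HC-like and to 11400 and 11226 CPM in the SGN-like sums. Of 5 vestibular markers, 4 had counts in each cochlear HC-like sum, at 72.9 and 92.5 CPM together against 1466 and 1564 CPM in the vestibular-like sums.

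In mm10 (GRCm38), GENCODE M21 places Otof on the minus strand at chr5:30367062-30461932, Ctbp2 on the minus strand at chr7:132987563-133124354, Bsn on the minus strand at chr9:108096022-108190384 and Rimbp2 on the minus strand at chr5:128757791-128953486. Pclo lies on the plus strand at chr5:14514918-14863459, Rims2 at chr15:39198261-39684372 and Erc2 at chr14:27622428-28478537, both also on the plus strand. Ctbp2 makes 2 proteins from separate start sites: a transcript of 988 codons (chr7:132987578-133015248), which has the length of RIBEYE, and one of 445 codons (chr7:132987621-133123367), the transcriptional co-repressor CtBP2. Counts were deposited per gene, so a Ctbp2 level is the sum of both products and cannot be split here. The 250 bases before the RefSeq start (GRCm38.p6) are shown for the 3 genes that were lower in HCs than in SGNs, 5′ to 3′ on the strand of the gene. Capitals mark each CANNTG, the E-box letters read by basic helix-loop-helix factors such as ATOH1 of HCs and NEUROD1 of SGNs. The motif reads the same on both strands, overlaps no other motif searched, and was present in 66.2% of 32851 windows of this length. Windows were given for 5 of the 7 genes, and none for Otof or Rims2.
Bsn (chr9:108190384-108190633, minus strand): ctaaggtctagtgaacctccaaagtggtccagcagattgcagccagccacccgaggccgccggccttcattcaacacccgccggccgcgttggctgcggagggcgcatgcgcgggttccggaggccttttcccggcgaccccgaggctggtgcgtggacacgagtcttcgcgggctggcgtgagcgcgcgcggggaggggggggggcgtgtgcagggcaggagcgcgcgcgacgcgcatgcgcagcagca
Pclo (chr5:14514668-14514917, plus strand): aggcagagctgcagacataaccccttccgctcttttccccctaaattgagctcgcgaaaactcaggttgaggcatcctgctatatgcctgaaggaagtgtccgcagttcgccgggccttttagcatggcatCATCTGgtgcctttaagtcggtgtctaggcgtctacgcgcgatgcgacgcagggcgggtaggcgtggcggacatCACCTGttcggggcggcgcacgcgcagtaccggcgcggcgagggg
Erc2 (chr14:27622157-27622406, plus strand): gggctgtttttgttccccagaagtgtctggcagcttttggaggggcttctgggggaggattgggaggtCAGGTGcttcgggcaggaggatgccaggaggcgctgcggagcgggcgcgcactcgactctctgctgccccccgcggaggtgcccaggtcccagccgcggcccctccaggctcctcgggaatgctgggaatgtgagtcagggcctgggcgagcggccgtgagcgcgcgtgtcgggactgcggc
The Bsn window held 0 such motifs, the Pclo window 2 (CATCTG followed by CACCTG) and the Erc2 window 1 (CAGGTG), which is a description of these letters and not evidence of a bound site.

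To compare ribbon synapse genes between the presynaptic HC and the neuron it contacts, counts were summed over cochlear HC-like and over SGN-like cells in each E18.5 plate. Otof, Ctbp2 and Rims2 were higher in HCs, and Bsn, Pclo and Erc2 were higher in SGNs, while Rimbp2 was not called. With edgeR's quasi-likelihood test, 24.0% of 15764 genes were called higher in HCs and 28.3% lower at a Benjamini-Hochberg adjusted p under 0.05, beside 3 of 7 and 3 of 7 here, so the number called is not far above the background and the account rests on which genes moved and by how much. The median log2 fold change was 0.45 over the 7 genes and -0.13 over all genes tested. Classes were named on the same cells that were tested, which lowers p between classes even though the 7 genes took no part in the clustering.

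Otof was at 1890 and 2709 CPM in cochlear HC-like sums and at 3.45 and 3.73 CPM in SGN-like sums. Both HC values lay far above both SGN values, at 681-fold (log2 fold change 9.41, SE 0.26, adjusted p = 2.73e-05 by edgeR), and every one of the 30 cochlear HC-like cells had Otof counts. The 2 HC values differed from each other more than those of the other called genes that were higher, and the plates also differed in the makeup of the sum, with 6 IHC-like and 8 OHC-like cells in the first and 13 and 3 in the second. Ctbp2 was at 109.3 and 109.8 CPM in HCs and at 34.4 and 35.6 CPM in SGNs, 3.34-fold higher in HCs (log2 1.74, SE 0.13, edgeR adjusted p = 0.000303). Glia-like cells of the same plates held Ctbp2 at 59.7 and 62.0 CPM, above the SGN level, and without the 395 of 620 SGN-like cells that had a Sox10 count the HC excess was 2.30 on the log2 scale. Rims2, whose product links vesicles to calcium channels, was at 423.9 and 384.3 CPM in HCs and at 129.9 and 126.1 CPM in SGNs, 3.37-fold higher (log2 1.75, SE 0.12, edgeR adjusted p = 0.000194). It was the second most abundant of the 7 in HCs per kilobase of exon.

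**Figure D1:**
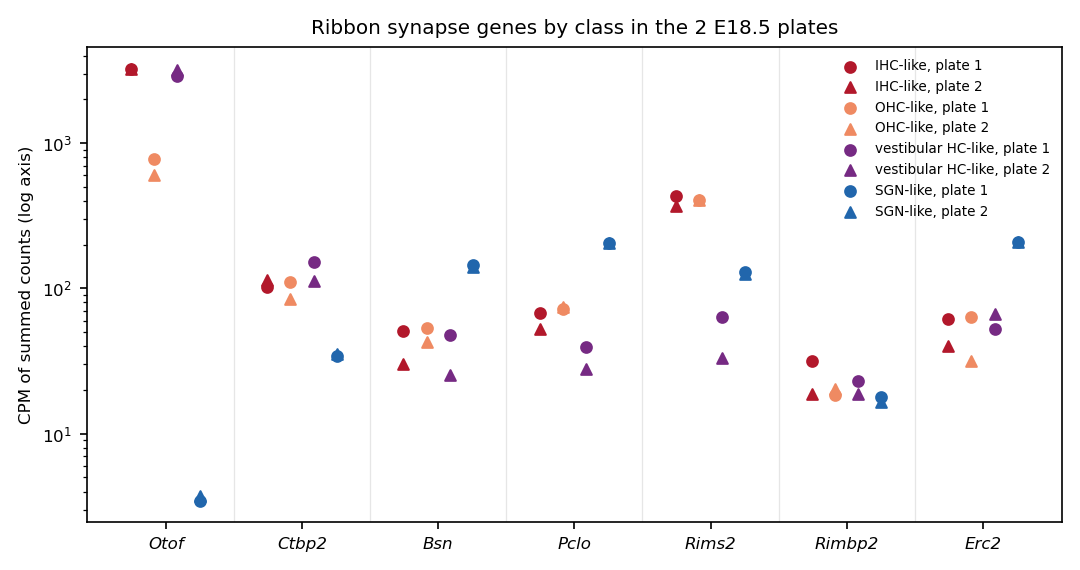
CPM of the 7 genes (log axis) in IHC-like, OHC-like, vestibular HC-like and SGN-like sums of the 2 E18.5 plates (circles plate 1, triangles plate 2), 1 point per class and plate. Otof lies at 597.9 CPM or above in HC classes and at 3.73 CPM or below in SGN-like cells, Bsn, Pclo and Erc2 sit highest in SGN-like cells, and Rims2 is lower in vestibular than in cochlear HC-like cells.

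The scaffold genes went the other way. Bsn was at 53.2 and 33.8 CPM in HCs and at 145.8 and 140.9 CPM in SGNs, 3.10-fold lower in HCs (log2 -1.63, SE 0.23, edgeR adjusted p = 0.00285). Pclo was at 71.5 and 58.9 CPM in HCs against 206.6 and 206.2 CPM, 2.97-fold lower (log2 -1.57, SE 0.15, edgeR adjusted p = 0.000601). Erc2 was at 63.7 and 39.2 CPM in HCs against 208.3 and 209.8 CPM, 3.82-fold lower (log2 -1.93, SE 0.24, edgeR adjusted p = 0.00178). For each of these genes both HC values lay below both SGN values, and the first E18.5 plate was the higher of the 2 in HCs. Rimbp2 was at 24.8 and 19.5 CPM in HCs and at 17.9 and 16.6 CPM in SGNs, and the difference missed the threshold (log2 0.45, SE 0.23, edgeR adjusted p = 0.145). Neuronal transcripts were present in the HC sums, as the 8 neuronal markers above show, and their part in the HC levels of Bsn, Pclo and Erc2 was not tested. The same 6 genes were called under each of 12 alternatives, and Rims2 fell to 0.94 on the log2 scale when vestibular-like and unplaced HC-like cells were kept.

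**Figure D2:**
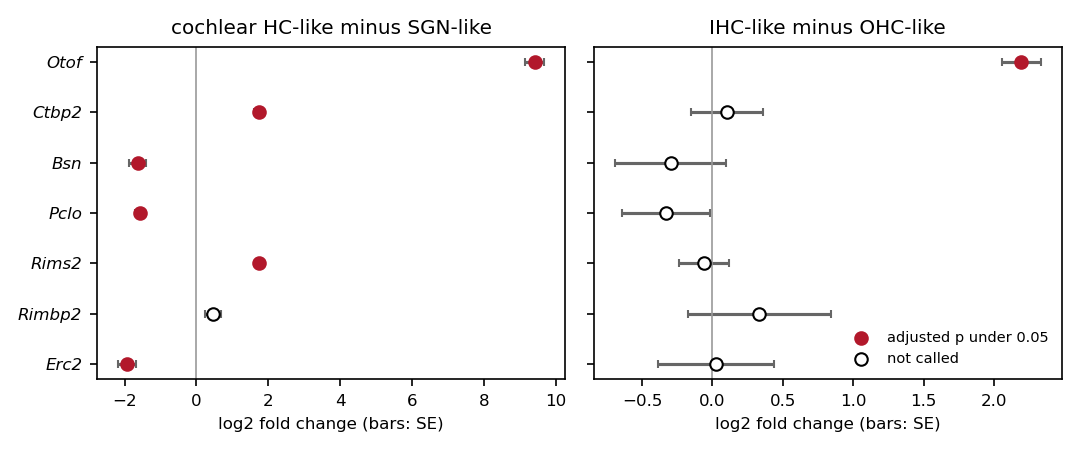
Log2 fold change of each gene with its standard error (bars), for cochlear HC-like minus SGN-like sums at left and IHC-like minus OHC-like sums at right (E18.5, 2 plates a class). Filled points have an adjusted p under 0.05: 6 of 7 at left, and Otof at right.

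For Otof, Ctbp2, Bsn, Pclo and Erc2, the share of cells with a count went in the same direction after each cell was thinned to 50000 counts, which removes differences of depth. Shares of Rims2 and Rimbp2 are not given here. Otof counts were left in 30 of 30 cochlear HC-like cells (100%, exact binomial 95% interval 88.4 to 100) and in 52 of 619 SGN-like cells (8.40%, 6.34 to 10.9), 1 shallower cell having been left out. Ctbp2 was left in 29 of 30 HC-like cells (96.7%, 82.8 to 99.9) and in 62.8% of SGN-like cells (58.9 to 66.7). Bsn, Pclo and Erc2 were left in 95.96, 98.5 and 99.5% of SGN-like cells and in 76.7, 86.7 and 80.0% of HC-like cells. Intervals cover counting error only.

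Per kilobase of exon, which allows levels of different genes to be compared, Otof ranked first in cochlear HC-like cells at 290.9 ± 73.2 CPM per kb (SD, n = 2), followed by Rims2 at 38.9 ± 2.69 and Ctbp2 at 17.6 ± 0.058. Erc2 was at 5.29 ± 1.78 CPM per kb, and Pclo (2.90 ± 0.40), Rimbp2 (2.79 ± 0.47) and Bsn (2.73 ± 0.86) closed the order with ranges that overlapped. In SGN-like cells of the same plates the order began with Erc2 (21.5 ± 0.11 CPM per kb), Rims2 (12.3 ± 0.26) and Pclo (9.19 ± 0.013), and ended with Rimbp2 (2.17 ± 0.12) and Otof (0.455 ± 0.025). Exon lengths were those of the annotation, so unused exons or isoforms would shift these values.

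IHCs, which drive most SGNs, and OHCs, which amplify sound and contact the sparse type II SGNs, were then compared at E18.5. Otof was at 3250 and 3243 CPM in IHC-like and at 779.8 and 597.9 CPM in OHC-like sums, 4.58-fold higher in IHCs (log2 2.19, SE 0.14, edgeR adjusted p = 4.12e-06). No other of the 7 genes was called, beside 4.68% of 11403 genes called higher and 3.56% lower in IHCs. Per cell, Otof ran from 766.2 to 5959 CPM with a median of 2878 in the 19 IHC-like cells and from 497.8 to 955.3 with a median of 767 in the 11 OHC-like cells. The lowest IHC-like cell thus lay within the OHC range, and the other cells of the 2 classes separated. The call rests on few cells, as the second plate held 3 OHC-like cells. With 1 plate left out each class has 1 sum, so these fits were joint with SGN-like sums of all stages, which supplied the spread and to which the lone sums were assumed alike. In the joint fit of all plates the difference was 2.22 (edgeR adjusted p = 0.000560), without the second plate 2.06 (edgeR adjusted p = 0.0566) and without the first 2.36 (edgeR adjusted p = 0.0343).

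**Figure D3:**
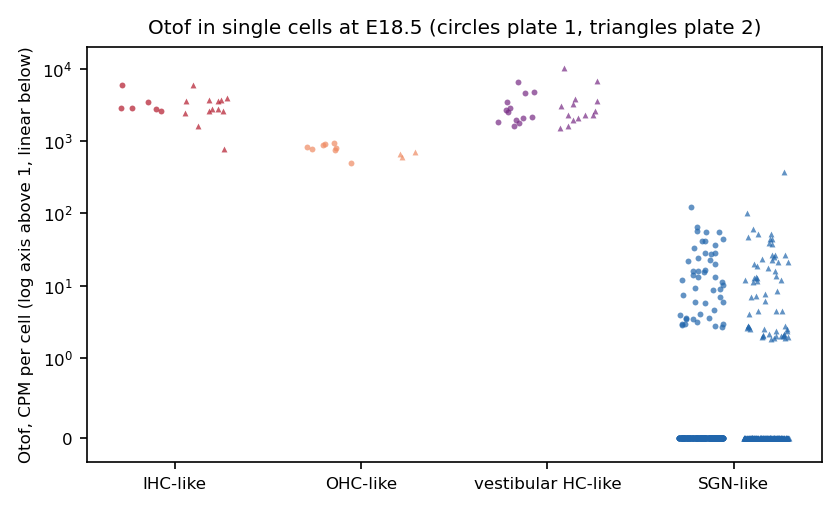
Otof in single cells at E18.5 as CPM per cell (log axis above 1, linear below), by class and plate (circles plate 1, triangles plate 2; points are spread sideways at random). Vestibular HC-like cells lie at 1510 CPM or above and OHC-like cells at 955.3 CPM or below, 1 IHC-like cell (766.2 CPM) falls among the OHC-like cells, and most SGN-like cells at 0.

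For the remaining genes no difference was called, with wide errors. Ctbp2 was at 102.4 and 114.1 CPM in IHCs and 110.7 and 84.4 CPM in OHCs (log2 0.10, SE 0.25). Rims2 was at 431.4 and 367.2 CPM in IHCs and 402.9 and 406.4 CPM in OHCs (log2 -0.06, SE 0.18). The standard errors of Bsn, Pclo, Rimbp2 and Erc2 ranged from 0.31 to 0.51, which left these comparisons imprecise. The edgeR adjusted p of the 6 uncalled genes ranged from 0.643 to 0.986, and markers of other cells differed between the classes. The glial markers summed to 940 and 952 CPM in IHC-like and 226.4 and 102.2 CPM in OHC-like sums, and the neuronal markers to 994 and 997 against 505.1 and 438.9 CPM. Supporting cell markers went the other way, at 84.8 and 115.8 against 330.1 and 395.9 CPM, and the part of these cells in the values was not tested.

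Vestibular HC-like cells of the same plates, which the study discarded, give a further ribbon-bearing class. Otof was at 2912 and 3182 CPM there and Ctbp2 at 150.7 and 112.4 CPM, both near or above the cochlear values. Rims2 was at 63.4 and 33.0 CPM, 6.69-fold and 11.6-fold below the cochlear sum of the same plate. It was there also below the SGN-like sums of these plates (129.9 and 126.1 CPM), unlike in cochlear HCs. Pclo was at 39.7 and 27.9 CPM, which was 1.80-fold and 2.11-fold below the cochlear sum. Bsn (47.9 and 25.2 CPM) and Rimbp2 (23.1 and 18.9 CPM) lay close to the cochlear values, and Erc2 was at 52.8 and 66.8 CPM. No test was planned between these classes, and the values are a description.

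The earliest HC-like sums allowed a comparison of E18.5 with E16.5. It was made over all HC-like cells because 9 of the 12 HC-like cells at E16.5 were named vestibular-like by their cluster. Otof was at 1709 and 1318 CPM in the E16.5 plates with HC-like cells (4 cells in replicate 1, 8 in replicate 3) and at 2256 and 2771 CPM at E18.5. Ctbp2 was at 116.2 and 136.7 CPM at E16.5 and at 120.1 and 109.9 CPM at E18.5, and Rimbp2 at 17.3 and 20.8 against 20.6 and 18.9 CPM. The other genes split the E16.5 plates. Replicate 1 held Rims2 at 208.6 CPM, Erc2 at 77.2, Pclo at 57.4 and Bsn at 14.2, whereas replicate 3 had no count of Rims2, Erc2 or Bsn and Pclo at 0.48 CPM. At E18.5 these genes were at 257.4 and 217.0 CPM (Rims2), 52.9 and 59.3 CPM (Erc2), 55.0 and 43.3 CPM (Pclo) and 42.2 and 29.2 CPM (Bsn). None of the 7 genes was called, beside 0.0% of 12895 genes in either direction by edgeR, with 745 genes at an unadjusted p under 0.05 and 36 called by DESeq2.

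These values rest on single plates. Plates were left out in a joint fit with SGN-like sums, which supplied the spread where 1 HC sum was left at a stage and in which none of the 7 genes was called with all plates. In that fit, Bsn, Pclo, Rims2 and Erc2 were called without replicate 1 of E16.5, against the sum with few or no counts of them, and without replicate 3 only Bsn was (log2 1.28, against 2.31 with all plates). Atoh1, an HC marker, had no count in replicate 3, whose 8 cells were named by cluster as 7 vestibular-like and 1 IHC-like. Replicate 1 held 2 vestibular-like and 2 OHC-like cells. The name of the 1 IHC-like cell is not borne out by its markers. With it, replicate 3 had IHC markers at 264.1, cochlear markers at 1.45 and vestibular markers at 578.5 CPM. Without it these sums were 272.2, 1.49 and 531.0 CPM. In the sums of all HC-like cells stage and origin cannot be told apart, since 27 of the 69 HC-like cells at E18.5 were vestibular-like. The 7 vestibular-like cells of replicate 3 at E16.5 had no count of Rims2, Bsn or Erc2 and held Pclo at 0.50 CPM. Vestibular-like sums at E18.5 held Rims2 at 63.4 and 33.0 CPM and Bsn at 47.9 and 25.2 CPM. Erc2 was there at 52.8 and 66.8 CPM and Pclo at 39.7 and 27.9 CPM. This comparison within a single origin rests on 1 plate of another series at E16.5 and was not tested. The change from E16.5 to E18.5 did not differ between HCs and SGNs at the threshold for any of the 7 genes (interaction term, edgeR adjusted p from 0.165 for Otof to 0.905 for Ctbp2). At E17.5 the plate held 5 HC-like cells, of which 4 belonged to the collagen-led cluster, with Otof at 486.1 CPM.

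Across development, SGN-like cells were compared between successive stages over all 12 plates. Otof and Pclo rose from E14.5 to E15.5 and Ctbp2 fell, no gene was called from E15.5 to E16.5 or from E16.5 to E18.5, and Otof, Rimbp2 and Rims2 fell from E18.5 to P3. Over all genes tested (17935), 3.46% rose and 2.85% fell from E14.5 to E15.5, 1.46% and 0.507% from E15.5 to E16.5, 3.16% and 2.44% from E16.5 to E18.5, and 12.7% and 12.3% from E18.5 to P3. From E14.5 to E18.5, 14.4% rose and 9.74% fell, beside 2 and 1 of the 7 genes. By the study's methods E14.5 had another Cre driver than the later embryonic stages, and by the labels its replicate 2 did. By the methods, driver and stage cannot be told apart in the comparisons with E14.5. By the labels, replicate 1 of E14.5 shared the driver of the later plates. Without replicate 2, which left 1 plate at E14.5, Rimbp2 rose more to E15.5 (log2 1.64, against 1.05 with all plates). Rimbp2 also rose more to E18.5 (1.56 against 0.97), and Ctbp2 fell less to E15.5 (-0.58 against -0.69). The glial markers summed to 27.5 to 175.7 CPM in SGN-like sums of SS2_20 plates, 678.4 and 744.4 CPM in the SS2_18 plates of E16.5 and 3535 to 3930 CPM at E18.5 and P3, and their part in the stage differences up to E18.5 was not tested except where a value without Sox10-positive cells is given.

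Pclo, the larger of the 2 related ribbon anchors, was at 93.9 and 106.7 CPM at E14.5 and at 211.5 and 182.4 CPM at E15.5 (log2 0.95, SE 0.16, edgeR adjusted p = 0.00735). Every later plate lay above both E14.5 plates, with 225.4, 244.1 and 218.2 CPM at E16.5, 280.0 CPM at E17.5, 206.6 and 206.2 CPM at E18.5, and 265.0 and 184.2 CPM at P3. The increase from E14.5 to E18.5 was 1.85-fold (log2 0.88, SE 0.16, edgeR adjusted p = 0.0024). Bsn did not follow it within the tests: its level was 140.8 and 121.3 CPM at E14.5, 197.1 and 178.3 at E15.5, 167.1, 160.1 and 170.2 at E16.5, 256.8 at E17.5, 145.8 and 140.9 at E18.5 and 119.8 and 85.1 at P3. The fall of Bsn to P3 was just short of the threshold (log2 -0.46, SE 0.15, edgeR adjusted p = 0.0506) and passed it in 10 of 19 alternatives.

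Ctbp2 fell over the same period. It was at 66.3 and 76.0 CPM at E14.5, 46.0 and 44.0 at E15.5, 39.8, 36.9 and 29.4 at E16.5, 38.1 at E17.5, 34.4 and 35.6 at E18.5 and 28.4 and 27.7 at P3, with both E14.5 plates above every later plate. From E14.5 to E18.5 it fell 2.27-fold (log2 -1.18, SE 0.17, edgeR adjusted p = 0.000545), a call that was kept in 19 of 19 alternatives and that was -1.72 at its lowest. The first step, from E14.5 to E15.5, was called at an edgeR adjusted p of 0.0361 (log2 -0.69, SE 0.17) but in only 7 of 19 alternatives.

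**Figure D4:**
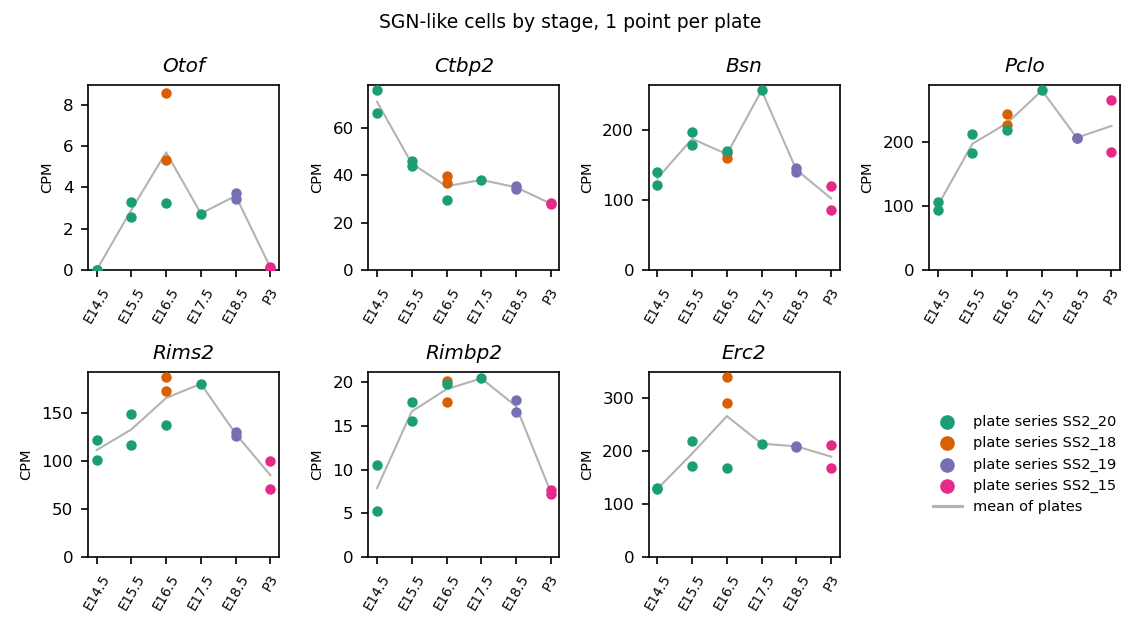
CPM of each gene in SGN-like sums by stage, 1 point per plate (linear axes from 0), coloured by plate series, with a line through the stage means. Otof is at 0 in both E14.5 plates and at most 0.16 CPM at P3, Pclo is lowest and Ctbp2 highest at E14.5, and Rimbp2 is low at E14.5 and at P3.

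Rimbp2 was at 5.26 and 10.5 CPM at E14.5, between 15.6 and 20.4 CPM in all 8 plates from E15.5 to E18.5, and at 7.24 and 7.65 CPM at P3. The lower level at P3 was called (log2 -1.18, SE 0.33, edgeR adjusted p = 0.0216), whereas the higher level at E18.5 than at E14.5 was not (log2 0.97, SE 0.33, edgeR adjusted p = 0.0543). Rims2 was at 100.5 and 121.8 CPM at E14.5, 148.3 and 116.8 at E15.5, 172.3, 186.6 and 136.8 at E16.5, 179.8 at E17.5, 129.9 and 126.1 at E18.5 and 99.3 and 70.9 at P3, with a called fall from E18.5 to P3 (log2 -0.57, SE 0.19, edgeR adjusted p = 0.0472) that was kept in 12 of 19 alternatives. It was lost at Leiden resolution 2, without the cells of most counts, without Sox10-positive cells and without replicate 1 of E16.5 (edgeR adjusted p from 0.0582 to 0.102). Without either E18.5 plate or without replicate 2 of P3, neither Rims2 nor Rimbp2 was called between these stages, and their log2 changes then ran from -0.62 to -0.38 and from -1.27 to -1.15. Rimbp2 was also not called without replicate 1 of P3. Erc2 was at 129.7 and 127.9 CPM at E14.5, 219.2 and 171.6 at E15.5, 214.0 at E17.5, 208.3 and 209.8 at E18.5 and 210.6 and 168.8 at P3, with a wide spread at E16.5, where the SS2_18 plates held 290.6 and 339.0 CPM and the SS2_20 plate 168.2 CPM. Its difference between E14.5 and E18.5 was not called (log2 0.54, SE 0.24, edgeR adjusted p = 0.132). When SGN-like cells with a Sox10 count were left out, Rimbp2 (1.32) and Erc2 (0.86) were both called between E14.5 and E18.5. The SGN sums of E18.5 and P3 had near sums of glial markers (3535 and 3610 CPM against 3584 and 3930 CPM), but these stages were sequenced in different plate series, so stage and series cannot be told apart there.

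Otof, an HC gene, was also found at a low level in SGN-like cells of the later embryo. No count was found in 130 SGN-like cells at E14.5, which allows a share of up to 2.31% of cells with a count (3 of 130, counting error only) and sets no limit on expression below detection. Its level was 2.56 and 3.28 CPM at E15.5, 5.31, 8.56 and 3.23 CPM at E16.5, 2.74 CPM at E17.5, 3.45 and 3.73 CPM at E18.5 and 0.080 and 0.16 CPM at P3. All 8 plates from E15.5 to E18.5 thus lay above all 4 plates of the outer stages. Against the floor of 3 counts in an E14.5 plate (0.194 CPM at the highest), the mean was at least 15.04-fold higher at E15.5 and at least 18.51-fold higher at E18.5, and both differences were called (edgeR adjusted p = 0.00368 and 0.000612). From E18.5 to P3 Otof fell 29.5-fold (log2 -4.88, SE 0.76, edgeR adjusted p = 0.00127), and the fall was called in 19 of 19 alternatives. Its size was less certain, at -4.46 without replicate 1 of P3, -5.46 without replicate 2 and -7.50 without Sox10-positive cells on the log2 scale.

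These counts came from a minority of cells. At E18.5, 111 of 620 SGN-like cells (17.9%, exact 95% interval 14.96 to 21.2) had an Otof count, at a median of 11.3 CPM among those cells, and the highest was at 374.9 CPM, below each of the 30 cochlear HC-like cells. At E15.5, 10 of 170 cells (5.88%, 2.86 to 10.6) had a count. No HC-like cell was named at E14.5, E15.5 or P3 or in replicate 2 of E16.5, and 69 were named at E18.5. The source of the counts was not tested. After thinning to 50000 counts, the shares were 3.57% at E15.5, 11.9% at E16.5, 8.40% at E18.5 and 0.421% at P3. Glia-like cells had Otof counts in 0.213% of cells at E15.5, 1.78% at E16.5 and 2.99% at E18.5 at the same thinned depth, with an interval of 0.364 to 10.4 in the last that covers the SGN share, and in 12.5% (5.88 to 22.4) at E18.5 over all counts. They were not free of neuronal RNA: their 8 neuronal markers summed to 4073 and 4168 CPM at E18.5 and to 5673 and 6356 CPM in the SS2_18 plates of E16.5, against 510.5 to 666.3 CPM in the SS2_20 plates. Their Otof level was 1.78 and 0.73 CPM at E18.5 and 2.50 and 1.24 CPM in the SS2_18 plates, against 0.11 CPM in the SS2_20 plate of E16.5. At E14.5, where SGN-like sums had no count, glia-like sums held Otof at 0.39 and 0.035 CPM (11 counts and 1 count). Otic mesenchyme-like sums of these plates held it at 0.050 and 0.19 CPM (2 and 9 counts). At E18.5 the SGN level of Otof was 0.183 and 0.138% of the HC level of the same plate. The corresponding values were 0.0104 and 0.0104% for Atoh1, 0.0191 and 0.0244% for Pou4f3 and 0.0103 and 0.0378% for Gfi1, all transcription factors of HCs, and 0.462 and 0.453% for Xirp2, an actin-binding protein of their hair bundles. Lhx3 and Cxcl14 lay between 0.0643 and 0.0835%, below Otof, whereas Myo7a (2.40 and 2.49%), Myo6 (4.56 and 4.66%), Cib2 (7.94 and 7.08%) and Slc17a8 (8.19 and 4.08%) lay above it, so that Otof stood between 5 HC genes with lower and 5 with higher values.

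The wider release machinery was counted over lists of related genes, of which the named ones are those with the largest called differences and the relatives of the 7 genes. Of 21 ribbon synapse partners tested (22 listed), 6 were higher and 11 lower in cochlear HCs than in SGNs, with a median log2 fold change of -0.66. Over all genes tested, 24.0% were higher and 28.3% lower with a median of -0.13, against which the counts and medians of this and the next lists are to be read. The number of partners higher is near its share, and the number lower is above its share. The calcium sensors Cabp2 (163.9 and 319.6 CPM in HCs, 0.15 and 0.18 CPM in SGNs, log2 10.57) and Cabp4 (log2 4.88) and the synaptotagmin Syt6 (log2 4.71) were higher, as were Slc17a8 (log2 4.29), the vesicular glutamate transporter of IHCs, and Cacna1d (log2 1.75), the calcium channel of HC ribbons, both of which were picked after their values were seen. Cabp1 had no count in HCs and was at 19.2 and 20.8 CPM in SGNs, at least 29.8-fold lower against a floor of 3 counts per sum. The 11 lower partners also included Syp (log2 -2.56), Syt7 (log2 -2.04), Rab3a (log2 -1.97) and Snap91 (log2 -1.66), named after their values were seen. Between IHCs and OHCs, 5 of 19 partners tested were higher and 1 lower in IHCs, beside 4.68 and 3.56% of all genes. Cabp2 was at 369.3 and 403.1 CPM in IHCs against 0.39 CPM and no count in OHCs, and Slc17a8 at 163.0 and 199.0 CPM against 11.998 CPM and no count (log2 4.57). The priming factor Unc13b (log2 1.54), the endophilin Sh3gl2 (log2 1.47) and Cacna1d (log2 0.82) were also higher, and Atp6v0a1, a subunit of the vesicular proton pump, was lower (log2 -0.80).

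Of 19 active zone scaffold genes tested (20 listed), 3 were higher and 11 lower in HCs, beside 24.0 and 28.3% of all genes, with a median log2 fold change of -1.01. Rims1, the closest relative of Rims2, had no count in the HC sums and was at 36.4 and 32.0 CPM in SGNs, at least 51.0-fold lower by the same floor. The liprin Ppfia2 (log2 -9.18), Lin7a (log2 -4.41) and Bzrap1 (log2 -3.56), a relative of Rimbp2 now named Tspoap1, were also lower, as were Rims3 (log2 -3.16) and Erc1 (log2 -0.88). Ctbp1, the relative of Ctbp2, was at 186.9 and 177.3 CPM in HCs and 245.0 and 234.1 CPM in SGNs and was not called (edgeR adjusted p = 0.0675), nor was Rims4 (edgeR adjusted p = 0.296). Of 23 genes of conventional neuronal release tested (24 listed), 1 was higher and 16 lower, beside the same 24.0 and 28.3%, with a median of -2.46 against -0.13 over all genes. The glutamate transporters Slc17a7 (log2 -8.38) and Slc17a6 (log2 -8.27) and the synapsin Syn2 (log2 -6.03) were among those with the largest differences. Of the other ferlins, 4 of 5 were in the table and 3 were tested: Myof was higher in HCs (5.81 and 6.32 against 1.21 and 0.47 CPM, log2 2.95), Dysf (log2 -0.73) and Fer1l5 (log2 -0.28) were not called, Fer1l4 was too low to test, and none approached the Otof level.

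**Figure D5:**
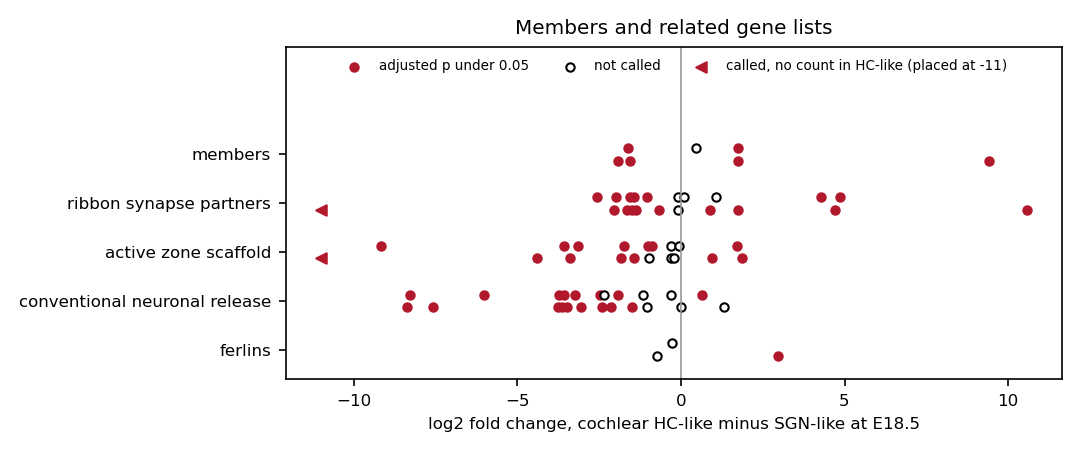
Log2 fold change, cochlear HC-like minus SGN-like at E18.5, of the 7 genes and of 4 related lists, 1 point per gene tested (filled: adjusted p under 0.05). Triangles at the left edge are Cabp1 and Rims1, which had no count in the HC sums and for which no fold can be given on this axis.

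The pattern of each gene over the 31 class and plate sums was last compared with that of 18908 other genes by Pearson correlation of log2(CPM + 1), as a description of sums that share plates and classes. The pattern of Otof was most like that of Efcab10 (r = 0.98), Fcrlb (0.97) and Dfnb59 (0.95), which encodes the deafness protein pejvakin. Bsn went most closely with the neurofilament gene Nefm (0.98), Erc2 with the ATP receptor gene P2rx3 (0.98), and Pclo with Fam189a2 and with Cadps (both 0.98), a priming factor of dense-core vesicles. Rims2 and Rimbp2 shared Ap3b2 (0.98 and 0.97) among their 3 nearest genes. Ctbp2 had no partner as close, with Fuz at 0.88, and it correlated negatively with Bsn (-0.47), Pclo (-0.52) and Erc2 (-0.51). Bsn, Pclo, Rims2, Rimbp2 and Erc2 correlated with each other at 0.90 to 0.98. Only 2 of the 31 sums were of cochlear HC-like cells, the others being SGN-like, glia-like and otic mesenchyme-like. These correlations thus say little on HCs against SGNs, where Rims2 was higher in HCs (log2 1.75) and Bsn, Pclo and Erc2 were lower.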

How the data were processed

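Single cells of 12 plates (stages E14.5 to P3) were measured by Smart-seq2. The authors demultiplexed the reads, mapped them with STAR to mm10 with ERCC sequences, kept uniquely mapped reads and deposited raw counts per gene and well. The counts are not normalized, they hold no molecule barcodes, and whether strand was used in counting is not given in the sources used here. A plate of 384 wells that belongs to no sample was not used.

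As in the study, cells were required to have over 1000 detected genes and an ERCC share below 5%. They were clustered stage by stage (scanpy 1.11.5, leidenalg 0.10.2, resolution 1, 2000 variable genes, 30 components, 30 neighbours). Cells of E17.5 and E18.5 were clustered and named together. Neither the 7 genes nor the related lists served as clustering features. Marker genes gave each cluster its name. HC-like cells of all stages were clustered again together (15 components, 10 neighbours) to name cochlear, vestibular, IHC-like and OHC-like cells, so the few earlier cells share clusters with those of E18.5. The members, lists and markers were chosen with earlier results of these data known. The naming rule was revised after cluster tables had been seen and, for the HC cluster led by collagen genes, after levels of the 7 genes had been seen. Doublets were not called; leaving out the 5% of cells with most counts per plate was an alternative.

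Counts were summed per class and plate (at least 3 HC-like or 5 other cells) and compared by the quasi-likelihood test of edgeR 4.0.16 under R 4.3.3, after filterByExpr and TMM scaling. The threshold for a call was an adjusted p (Benjamini-Hochberg, all genes tested) of less than 0.05. The SE is the absolute log2 fold change divided by the square root of F. The comparisons were cochlear HC-like against SGN-like and IHC-like against OHC-like at E18.5, SGN-like stages in 1 fit, and all HC-like cells at E18.5 against E16.5. CPM use TMM-scaled totals. Classes of an E18.5 plate come from the same pooled animals, which pairs them. Deviations of the paired sums from their class means correlated at 0.036 (HC and SGN) and 0.0089 (IHC and OHC) over genes. Alternatives were DESeq2 1.42.0, its size factors, no filter, Leiden resolution 2, other sets of cells, a joint fit, a plate block and leaving out each plate. Named genes were the 7, their relatives and up to 4 called genes of each list with the largest change. A gene that this rule names is not reported here. At a floor of 3 counts, the lowest detectable level ranged with the size of the sum, and depth set the precision. Scripts were tested on simulated data.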

Additional observations from a re-analysis of the deposited data

How the results depend on the processing

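The number of the 7 genes called between HCs and SGNs at E18.5 was 6 under each of 12 alternatives, and with the plate as a replicate block it was 6 there (Otof 9.40) and 1 between IHCs and OHCs (Otof 2.20); the block changed no call. Keeping the collagen-led HC cluster, an alternative chosen after seeing the data, gave 9.29 and 1.79 for Otof in these comparisons. From E14.5 to E15.5 DESeq2 called 5 genes in place of 3, and from E15.5 to E16.5 it called 1 (Ctbp2) in place of 0. From E14.5 to E18.5, leaving out SGN-like cells with a Sox10 count gave 5 in place of 3. Leaving out 1 plate gave 2 to 4 genes from E14.5 to E15.5, 0 to 1 from E16.5 to E18.5, 1 to 4 from E18.5 to P3, 3 to 4 from E14.5 to E18.5, 0 to 1 between IHCs and OHCs and 0 to 4 for HCs between E16.5 and E18.5. Between HCs and SGNs, IHCs and OHCs, and HC stages, plates were left out in the joint fit with SGN sums, which lend their spread to arms of 1 sum and which called 6, 1 and 0 of the 7 with all plates. The cause of these changes was not tested.

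Uncalled differences changed sign as follows, on the log2 scale. Without Sox10-positive cells, Pclo was 0.040 from E16.5 to E18.5 and -0.029 from E18.5 to P3, and Bsn was 0.30 from E14.5 to E18.5. With E17.5 merged into E18.5, Bsn was 0.11 from E16.5 and 0.34 from E14.5, and Pclo was -0.10 to P3. Without the cells of most counts, Rims2 was -0.011 from E14.5 to E18.5 and Ctbp2 0.068 in HCs between stages. Between IHCs and OHCs, Rimbp2 was -0.070 and Erc2 -0.22 at Leiden resolution 2, Erc2 was -0.0076 in the joint fit, and Ctbp2 was -0.061, Rimbp2 -0.21 and Erc2 -0.059 with the collagen-led cluster. In HCs between stages, Rimbp2 was 0.018 in the joint fit. When 1 plate was left out, Ctbp2 ran from -0.15 to 0.0020 from E16.5 to E18.5, Pclo from -0.14 to 0.34 from E18.5 to P3, and Bsn from -0.12 to 0.090 and Rims2 from -0.079 to 0.20 from E14.5 to E18.5. Between IHCs and OHCs, Ctbp2 ran from -0.11 to 0.36, Rims2 from -0.23 to 0.10, Rimbp2 from -0.19 to 0.77 and Erc2 from -0.059 to 0.27. In HCs between stages, Pclo ran from -0.27 to 6.61, Rimbp2 from -0.12 to 0.15 and Erc2 from -0.51 to 14.65, where the highest values of Pclo and Erc2 are against a sum with few or no counts and are no estimate of a fold.

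Over all genes, calls between HCs and SGNs numbered 8243 of 15764 tested, 7062 of 17190 in the joint fit and, in that fit, 4309 to 4483 without a plate. From E14.5 to E15.5 they numbered 1132, with 652 to 2618 under other settings that kept all plates. By the same count they numbered 352 from E15.5 to E16.5 (147 to 1398) and 1004 from E16.5 to E18.5 (92 to 2032). Fits without a plate are not in these ranges. Between IHCs and OHCs they numbered 940 (1550 in the joint fit). In HCs between stages they numbered 0 of 12895 tested, 36 by DESeq2, 1342 of 17291 in the joint fit and, in that fit, 745 to 7703 without a plate. Few HCs limit precision: the OHC-like sum of the second E18.5 plate came from 3 cells.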
